A study of Mus musculus with 2 samples.

Results

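MiR-125a, miR-125b, miR-99a, miR-99b and miR-100 are the miRNAs that share primary transcripts with members of the let-7 family in the vertebrate genome, and their reads were examined in the small RNA of the E9.5 mouse heart. Members were all precursor rows whose miRBase name, without the arm and copy number, was one of these names. The rule found 6 of 568 rows in replicate 1 and 6 of 523 rows in replicate 2, which belong to 4 of the 5 names. MiR-125a and miR-125b had 2 rows each, and miR-99a and miR-100 had 1 row each. MiR-99b had no row and was not analysed here. Both samples were hearts of wild type C57BL/6 embryos at embryonic day 9.5, 1 library per replicate and 1 group in all, so no conditions were compared. How many embryos made up a sample was not given in the sources used here.

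Each let-7 locus of this kind carries a miR-99/100 hairpin upstream of let-7 and a miR-125 hairpin downstream of it. Let-7 and miR-125 are known to repress Lin28, an RNA-binding protein of immature cells that itself blocks let-7 maturation, and both rise as many tissues differentiate. The miR-99/100 miRNAs are known for few but strong targets, among them the growth kinase Mtor and the chromatin remodeler Smarca5. A hairpin has a 5p and a 3p arm, and the arm that is kept in the silencing complex acts through its seed, nucleotides 2 to 8.

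The mature 5p sequences are shown because their seeds sort the members into 2 groups, with the seed in capitals (sequences from RefSeq, GRCm38.p6):
miR-99a-5p: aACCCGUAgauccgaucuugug
miR-100-5p: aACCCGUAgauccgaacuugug
miR-125a-5p: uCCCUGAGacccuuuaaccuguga
miR-125b-5p: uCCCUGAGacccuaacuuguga
MiR-99a-5p and miR-100-5p differ only by U16A, the miR-99a base being given first and positions being counted from the 5′ end. MiR-125a-5p and miR-125b-5p share their first 13 bases. The 3p arms of both miR-125b hairpins are shown because they tell apart loci that have the same 5p sequence, again with nucleotides 2 to 8 in capitals:
miR-125b-1-3p: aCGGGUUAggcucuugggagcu
miR-125b-2-3p: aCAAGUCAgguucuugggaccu
They are equal at 17 of 22 positions.

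Mature reads summed to 4942257 for replicate 1 and to 4806179 for replicate 2, and shares below are percent of these sums. Of the rows, 471 were listed in both replicates, among them all member rows. The label of the tissue was checked by markers. MiR-1a held 9.97% and 10.5% of the mature reads in its higher row, miR-133a 1.23% and 1.19%, and miR-499 0.167% and 0.147%, and the further cardiac miR-208b 0.038% and 0.0329%, whereas the neural miR-9 held 0.0048% and 0.0037%. Cardiac miR-208a (860 reads) and neural miR-124 (2 reads) were listed in replicate 1 only. Liver miR-122 held 0.0421% and 0.0554%, more than cardiac miR-208b in both replicates, so not every marker went with the heart label. Endothelial miR-126a (2.9% and 2.87%) and smooth muscle miR-143 (7.32% and 6.19%) and miR-145a (0.625% and 0.624%) were also abundant. In such bulk RNA, fewer cells of a type and less miRNA per cell cannot be told apart.

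The positions in mm9 were as follows. MiR-100 lies at chr9:41339520-41339577 and miR-125b-1 at chr9:41390023-41390083, both on the plus strand within introns of the lincRNA D230004N17Rik, and miR-125b-1 also within an intron of 2610203C20Rik. MiR-99a lies at chr16:77599185-77599244 on the plus strand, in an intron of Gm11146 on the opposite strand. MiR-125b-2 lies at chr16:77646524-77646583 on the plus strand and overlapped no annotated gene other than its own. MiR-125a lies at chr17:17967781-17967839 on the plus strand and overlaps an exon of Ncrna00085. In each locus a let-7 row lay on the same strand. The gap was 5237 bases from miR-100 to let-7a and 45141 bases from let-7a to miR-125b-1. It was 672 bases from miR-99a to let-7c and 46540 bases from let-7c to miR-125b-2. Let-7e ended 384 bases before miR-125a.

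MiR-99a-5p led the members. Its reads numbered 20212 and 20573 in replicates 1 and 2, or 0.409% (95% Wilson confidence interval 0.403% to 0.415%) and 0.428% (0.422% to 0.434%). MiR-100-5p, its near copy, held 4076 and 3932 reads, or 0.0825% and 0.0818%. MiR-125a-5p held 2851 and 3444 reads, or 0.0577% and 0.0717%. For miR-125b-5p, the chromosome 16 row held 1975 and 2053 reads and the chromosome 9 row 1919 and 2007 reads. MiR-99a-5p was thus 5.10 ± 0.19 times miR-100-5p, 6.53 ± 0.79 times miR-125a-5p and 10.1 ± 0.15 times the chromosome 16 row of miR-125b-5p (SD, n = 2). The last ratio was 20.3 with the miR-125b-5p reads divided equally over its loci, since both rows carry the same sequence. With each sequence counted once, it made up 69.4% and 68.6% of the member 5p reads. The ranges of miR-99a, miR-100, miR-125a and miR-125b over the replicates did not overlap, in that order from high to low, while both miR-125b rows overlapped each other. The miRNAs were measured in the same 2 libraries, so their values are paired, and 2 pairs are too few to test the order. Even with the pairing ignored, an exact permutation test of 2 against 2 values cannot go below a two-sided p of 0.333. The order was not tested. Reads were not calibrated to molecules, and how ligation of each sequence enters this order was not tested.

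**Figure D1:**
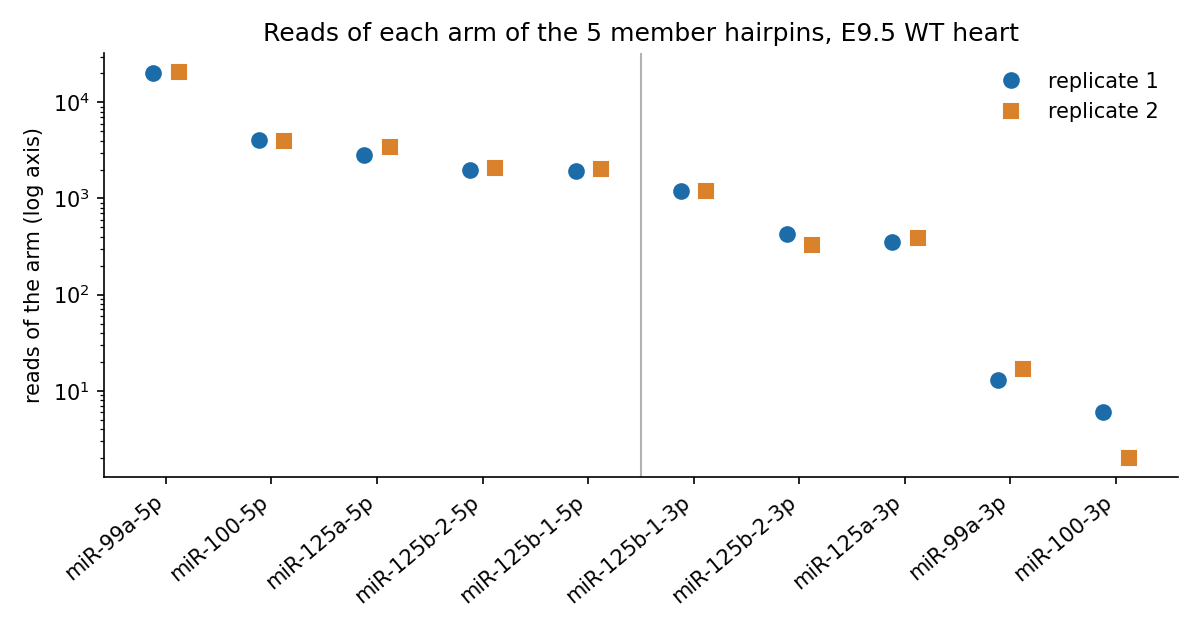
Reads of each arm (log axis) for the 5 member hairpins, with a circle for replicate 1 and a square for replicate 2, 5p arms left of the line and 3p arms right of it. The 5p arms fall from 20573 reads of miR-99a to 1919 of miR-125b-1, and the 3p arms from 1204 reads of miR-125b-1 to 2 of miR-100.

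Among the 471 rows, ranked by the mean share of the more abundant arm, miR-99a-5p stood at rank 42. The rows next to it were miR-341-3p (0.443% ± 0.032) and miR-433-3p (0.415% ± 0.074; SD, n = 2 for each). MiR-100-5p stood at rank 106, between miR-345-5p and miR-320-3p. MiR-125a-5p stood at ranks 115 and 116 with its 2 rows, between miR-340-5p and miR-342-3p. MiR-125b-5p stood at ranks 151 and 152, between miR-1198-5p and miR-501-3p. Each of these neighbours overlapped the member in its range over the replicates, so the ranks were not told apart from those next to them. With each sequence counted once, miR-99a-5p stood at rank 31 of 386 sequences, miR-100-5p at 79, miR-125a-5p at 88 and miR-125b-5p at 114. All member 5p arms together, each sequence counted once, held 0.589% and 0.624% of the mature reads summed over every row.

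On chromosomes 9 and 16, the let-7 row held fewer 5p reads than its miR-99/100 partner and more than its miR-125 partner. On chromosome 16, let-7c-5p held 3864 and 4441 reads. MiR-99a-5p was 5.23 and 4.63 times let-7c-5p, and miR-125b-5p was 0.511 and 0.462 times let-7c-5p. On chromosome 9, let-7a-5p held 2631 and 3327 reads. MiR-100-5p was 1.55 and 1.18 times let-7a-5p, and miR-125b-5p was 0.729 and 0.603 times let-7a-5p. On chromosome 17, let-7e-5p held 1988 and 2284 reads, and miR-125a-5p was 1.43 and 1.51 times that. By 5p reads, miR-125 was thus below let-7 on chromosomes 9 and 16 and above it on chromosome 17 in both replicates. With all reads of the precursor rows, the ratio of miR-125b-1 to let-7a went from 0.666 ± 0.089 to 1.07 ± 0.16 (SD, n = 2), so that its place below let-7a did not hold. The sequences of let-7a-5p, let-7c-5p and miR-125b-5p also occur in rows on 1 further chromosome each, and the tables do not tell which locus a shared read came from. Dividing such reads equally over the loci raised the mean ratio of miR-100 to let-7a from 1.37 to 2.73 and that of miR-99a to let-7c from 4.93 to 9.86. The ratios of miR-125b to let-7 cannot move under this division, because both terms are divided alike. It therefore does not test them.

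**Figure D2:**
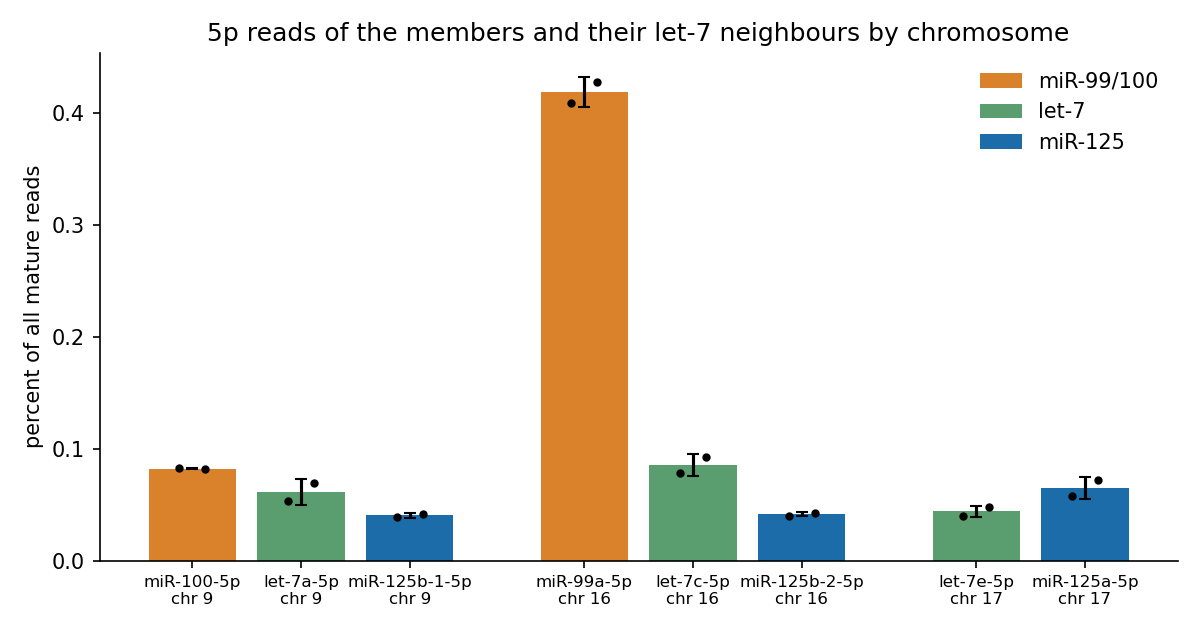
Percent of all mature reads on the 5p arm of each member and of the let-7 row at the same locus, as mean with SD of 2 replicates (bars) and both values (points). MiR-99a-5p stands at 0.409% and 0.428%, and no other bar reaches 0.1%.

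Both groups of members differed in how much of the hairpin was read from the 3p arm. The miR-125 hairpins gave many 3p reads. MiR-125b-1 had 1204 and 1183 3p reads beside 1919 and 2007 5p reads, so that 38.6% (95% Wilson confidence interval 36.9% to 40.3%) and 37.1% (35.4% to 38.8%) of its arm reads were 3p. MiR-125b-2 had 432 and 330 3p reads, or 17.9% and 13.8% of its arm reads. Both values rest on the 5p reads being counted in full at each locus. With these divided equally over the loci, the mean 3p percent was 54.9% for miR-125b-1, which would make 3p its larger arm, and 27.4% for miR-125b-2. The equal division is assumed, and the 3p reads were not equal, with 73.6% and 78.2% from chromosome 9. With the 5p reads divided as the 3p reads are, both loci would stand at 45.3% and 42.4%. Which arm of miR-125b-1 is larger, and whether the loci differ in 3p percent, thus depends on the division. MiR-125a had 352 and 384 3p reads, or 11.0% and 10.0%. The miR-99/100 hairpins gave almost none. MiR-99a had 13 and 17 3p reads, or 0.0643% and 0.0826%, and miR-100 had 6 and 2, or 0.147% and 0.0508%. In both replicates every miR-125 hairpin was thus at or above 10.0% and both miR-99/100 hairpins were at 0.147% or less.

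Over all 382 precursors with at least 20 arm reads in each replicate, the less used arm had a median of 1.02% of the arm reads, with quartiles at 0% and 8.73%. Of these precursors, each member included, 19 were at or above the value of miR-125b-1, 67 at or above that of miR-125b-2, and 90 at or above that of miR-125a, with 5p reads of shared sequences counted in full at each locus. MiR-100 and miR-99a lay below the median, with 132 and 124 precursors under them. Between the replicates, of the 5 member hairpins only miR-125b-2 passed the test of a different arm balance (adjusted p = 0.00215, Fisher's exact test), as did 8.90% of all 382 precursors. The 5p reads of miR-125b-2 in this test are of a sequence shared with chromosome 9. The test thus does not assign the difference to that hairpin alone.

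**Figure D3:**
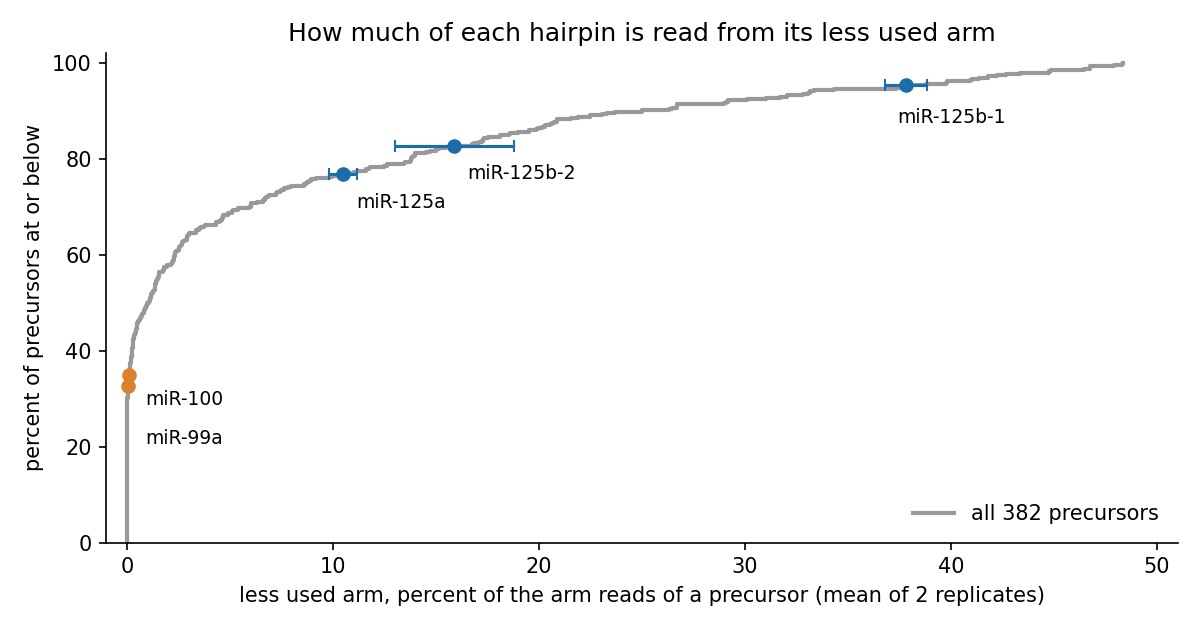
Cumulative percent of 382 precursors against the percent of arm reads on the less used arm, mean of 2 replicates, with the member hairpins as points and the SD of their 3p percent as bars. The miR-99/100 hairpins (orange) sit below 0.1%, and the miR-125 hairpins (blue) lie between 10.5% and 37.8%.

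The table of replicate 1 named the 3p arm of miR-125b-1 as the mature part, although its 1204 reads were fewer than the 1919 reads on the 5p arm, and the table of replicate 2 named the 5p arm. Fewer mature than star reads occurred in 8 rows of replicate 1 and 11 of replicate 2, and 11 of the 471 rows had opposite mature arms in the replicates. All member values here hold the arm the same.

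The 3p sequences give the only view of the miR-125b loci one by one. MiR-125b-1-3p of chromosome 9 had 2.79 times the reads of miR-125b-2-3p of chromosome 16 in replicate 1 and 3.58 times in replicate 2. Of the 3p reads of both loci, 73.6% (95% Wilson confidence interval 71.4% to 75.7%) and 78.2% (76.0% to 80.2%) came from chromosome 9. The 5p rows of the loci differed by only 56 and 46 reads, with the higher value on chromosome 16 in both replicates. With the 5p reads counted once, 45.3% and 42.4% of all miR-125b arm reads were 3p. Whether the loci differ in transcript or in how much of the 3p arm is kept was not tested.

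Between the replicates, 3 of 9 member arms with at least 20 reads in sum differed in share (adjusted p under 0.05, exact binomial test). The 9 leave out the further miR-125a row, which repeats the miR-125a-5p reads, and hold both rows of miR-125b-5p. With the further row, 4 of 10 differed. Of the 613 arms of the whole table, which keep such repeated rows, 35.6% did. The count of members is near that background. MiR-125a-5p was higher in replicate 2 by 0.31 on the log2 scale (adjusted p = 9.27e-17, exact binomial test), and miR-99a-5p by 0.07 (adjusted p = 2.12e-05, same exact test). MiR-125b-2-3p fell by 0.35 from replicate 1 to replicate 2 on that scale (exact binomial adjusted p = 0.00373). The log2 value of miR-100-5p was -0.01 (exact binomial adjusted p = 0.838), and the miR-125b-5p rows of chromosomes 9 and 16 stood at 0.11 and 0.10 (exact binomial adjusted p = 0.0638 and 0.0906). Among the 217 arms with at least 1000 reads in both replicates, the median absolute log2 ratio was 0.11 and the 90th percentile 0.32, so that miR-125a-5p was near the upper end and miR-99a-5p below the median. These tests cover counting error only. The difference of miR-99a-5p turned to a log2 ratio of -0.02 under edgeR's TMM scaling, which also moved the percent of called arms that were higher in replicate 2 from 68.8% to 42.8%.

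The miR-125 seed was not carried by the members alone. Over all rows listed in both replicates, the only further sequence with CCCUGAG at nucleotides 2 to 8 was miR-351-5p of chromosome X, which was not among the members and is named, after its values were seen, because the total turns on it:
miR-351-5p: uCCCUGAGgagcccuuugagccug
At rank 29 of the 471 rows, it held 25937 and 35975 reads, or 0.525% and 0.749%. Counting each sequence with this seed once, its reads made up 0.622% and 0.863% of the mature reads summed over every row, of which miR-351-5p gave 84.3% and 86.7% and the miR-125 members 15.7% and 13.3%. Reads with the miR-99/100 seed, ACCCGUA, made up 0.491% and 0.510%, all from miR-99a-5p and miR-100-5p. By the members alone, the miR-99/100 seed had 5.03 and 4.46 times the reads of the miR-125 seed, whereas with miR-351-5p the miR-125 seed had more reads in both replicates.

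**Figure D4:**
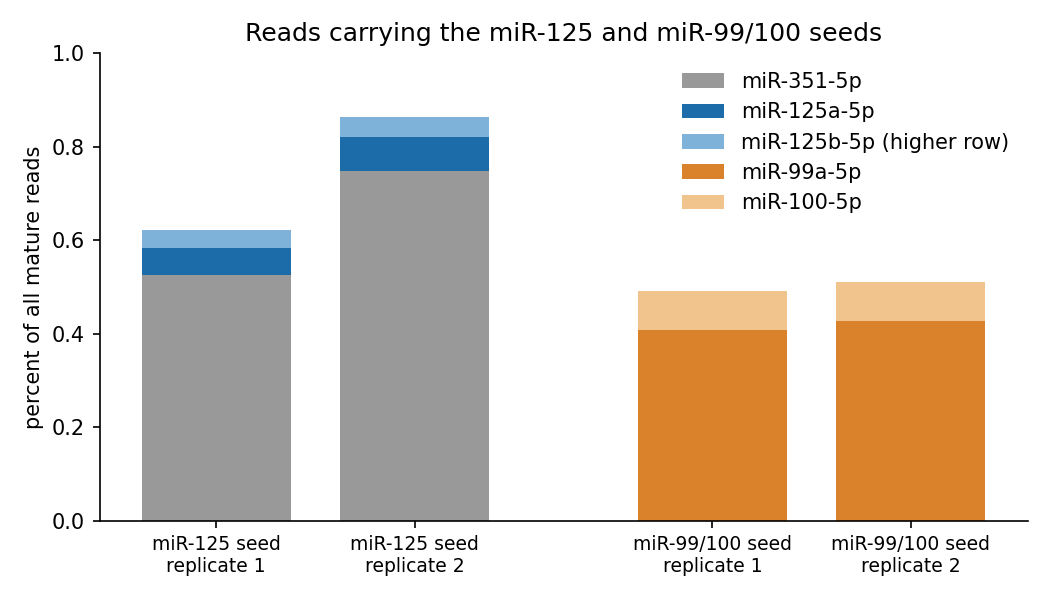
Percent of all mature reads that carry the miR-125 or the miR-99/100 seed in each replicate, stacked by miRNA, with each sequence counted once. MiR-351-5p makes up 84.3% and 86.7% of the miR-125 seed bars, and miR-99a-5p most of the miR-99/100 seed bars.

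Matches to the seeds were sought in the 3′ UTRs of genes known as targets of these miRNAs, as the 7 bases CTCAGGG that pair with the miR-125 seed and TACGGGT that pair with the miR-99/100 seed, on the sense strand of the longest 3′ UTR of each gene in GENCODE vM1. Sites are shown with these bases in capitals, because they are the letters through which the members would pair. For miR-125, Lin28a, the let-7 antagonist, had 1 match, at chr4:133561215-133561237 on the minus strand of NCBIM37, and Bak1, a gene of cell death, had 1 at chr17:27157260-27157282 on the minus strand:
Lin28a: ggtacatgagcaatCTCAGGGat
Bak1: ttggcggctggactCTCAGGGat
Lin28b had 1 match, and the DNA-binding genes Arid3a and Arid3b had 6 and 2. For miR-99/100, Mtor, Smarca5, Fgfr3 (a receptor of fibroblast growth factors) and Trib2 (a pseudokinase) had 1 match each, and the 197 annotated bases of the 3′ UTR of Igf1r, a growth factor receptor, had 0. The sites of Mtor at chr4:147931244-147931266, plus strand, and of Smarca5 at chr8:83224910-83224932, minus strand, were:
Mtor: gggtaactgagaaaTACGGGTtt
Smarca5: gtagttctttaattTACGGGTct
Over the longest 3′ UTR of all 19915 genes, 12.6% held the miR-125 match and 1.07% the miR-99/100 match. Among 3′ UTRs within 20% of the length of that of the gene, the share with the miR-125 match was 24.8% for Lin28a, 32.7% for Lin28b, 26.9% for Arid3a, 25.7% for Arid3b and 14.5% for Bak1. The share with the miR-99/100 match was 0.743% for Mtor, 2.14% for Smarca5, 1.5% for Fgfr3, 1.83% for Trib2 and 0% for Igf1r. Of the 1229 3′ UTRs near the length of that of Igf1r, 0 held the match. The 0 of Igf1r thus does not speak for sequence outside its 197 annotated bases. The genes were chosen as known targets, so their matches beside these shares are no test of enrichment. A match is a description of the letters, and the levels of these mRNAs were not measured in these libraries.

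The hairpin of miR-99a had a miRDeep2 score of 2.1 in both replicates, against 1200 to 2000 for miR-100, miR-125a and both miR-125b hairpins, although it had the most reads of them. Scores under 10 occurred in 18 of the 64 rows with at least 10000 mature reads in replicate 1 and in 20 of 63 in replicate 2. The consensus sequence of miR-99a-5p in the tables had 20 bases in both replicates, 2 fewer at the 3′ end than the RefSeq sequence, and that of miR-125a-5p had 23 bases against 24. MiR-100-5p and miR-125b-5p were equal to RefSeq. All 4 began at the same base as RefSeq, so the seeds were those shown. Consensus sequences with the RefSeq start and an end short by at least 2 bases made up 6.27% and 6.63% of those matched.

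The further miR-125a row spanned chr17:17967730-17967803 and held the same 2851 and 3444 reads of miR-125a-5p as the hairpin row, now as the 3p side of a longer fold. Its miRDeep2 score was -2 in both replicates, and its other arm had 0 reads, which allows a share of up to 6.07e-05% in replicate 1 and 6.24e-05% in replicate 2 (3 reads of the mature reads). Sums with each sequence counted once leave this row out.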

How the data were processed

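Total RNA of 2 samples of E9.5 WT hearts was made into TruSeq Small RNA libraries, and the authors sequenced them from one end for 50 nt (HiSeq2500), and clean reads were mapped to mm9 with miRDeep2, with 1 table per replicate. The deposited counts are raw reads on the mature, loop and star part of each known precursor, without normalization. The deposited miRDeep2 score is a rounded log-odds score. Versions, trimming and length filters were not given in the sources used here.

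Plus-strand positions were read as start to end minus 1 and minus-strand positions as start plus 1 to end, after which all 696 different precursors of both tables were equal to NCBIM37, the assembly that mm9 names. Rows were paired at 50% overlap of both precursors on the same strand. Each arm was read from its place in the precursor. Shares are percent of all mature reads of a replicate. The replicates were compared by exact binomial tests per arm (at least 20 reads in sum) and Fisher's exact tests of arm balance. Both were two-sided, with Benjamini-Hochberg adjustment over the whole table. They were also run on simulated counts that held counting error only, which says nothing of variation between libraries. Nothing in the labels says whether the samples came from separate litters, and intervals and p-values cover counting error only. Genes are those of GENCODE vM1. Alternatives used edgeR 4.0.16 and DESeq2 1.42.0 under R 4.3.3 for scaling, and scripts ran under Python 3.11.15 with scipy 1.17.1.

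Named miRNAs are all member rows, the let-7 rows of their loci, the rows next to them in rank and the tissue markers, and miR-351-5p, which was added after its values were seen. Members, gene lists and tests were chosen with earlier results of these data known.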

Additional observations from a re-analysis of the deposited data

Results flagged for a closer look

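Reads outside the arms stood out at miR-125a, above the floor of 3 reads. The further miR-125a row held 114 reads in replicate 1 and 136 in replicate 2 that were counted as loop reads, which is 14.6% and 18.0% of the 783 and 754 loop reads of the whole tables, the row with the second highest and the highest count. They were 4.0% and 3.95% of its mature reads. The loop part of the row lies at chr17:17967754-17967780 of mm9, plus strand, 27 bases directly before the first base of miR-125a-5p, and thus outside the loop between the miR-125a arms, where the hairpin row had 0 loop reads in both replicates. It is shown because the reads fall there:
upstream part: accauagcuacacugccggccucuggg
No control samples were there to compare with, and the source of these reads was not tested.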

How the results depend on the processing

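With each mature sequence counted once in the denominator, shares rose to 0.573% for miR-99a-5p, 0.1125% for miR-100-5p, 0.0886% for miR-125a-5p and 0.0566% for miR-125b-2-5p, and the sum of the member 5p arms went from 0.712%, with every row counted, to 0.831%, with each sequence counted once in the sum and in the denominator. MiR-100-5p was 0.0800% of mature plus star reads and 0.0801% of all precursor reads, and miR-125b-2 was 0.0479% of all precursor reads. Dividing the 5p reads of miR-125b equally over its loci, an assumed split chosen after seeing the data, raised the 3p percent to 54.9% for miR-125b-1 and 27.4% for miR-125b-2. Counting them once raised that of both loci together from 28.4% to 43.9%. Dividing shared reads also gave ratios of 2.73 for miR-100 to let-7a, 4.08 for miR-100 to miR-125b-1, 9.86 for miR-99a to let-7c and 20.3 for miR-99a to miR-125b-2. With all reads of the precursor, the ratios to let-7 were 1.07 for miR-125b-1, 0.572 for miR-125b-2 and 1.58 for miR-125a, and the ratios to miR-125b were 1.27 for miR-100 and 8.52 for miR-99a. The value for miR-125b-1 had an SD of 0.161, so that the replicates lay on both sides of equality with let-7a.

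Arms that differ between the replicates numbered 177 of 524 tested (each sequence once) to 224 of 798 (no minimum), against 218 of 613. At a minimum of 100 reads they were 219 of 466, so the percent called varied. Under TMM and DESeq2's size factors, the log2 ratio of miR-99a-5p turned to -0.017 and -0.016 (adjusted p = 0.428 and 0.472, exact binomial test) and that of miR-125b-1-3p to -0.068 and -0.067, while miR-100-5p passed the threshold at -0.09 under both (adjusted p = 0.0114 and 0.0129, exact binomial test). With a minimum of 100 reads, which leaves out miR-99a-3p, miR-125b-1-5p passed it (adjusted p = 0.0498, exact binomial test). The calls of miR-125a-5p and miR-125b-2-3p held under each of these settings. Leaving out 1 replicate leaves the value of the other, 0.409% to 0.428% for miR-99a-5p, and with 2 replicates it cannot move a mean by more than the SD, so it says nothing of stability. The 3p percent of miR-100, 0.0989% on average, was 0.0508% without replicate 1 and 0.147% without replicate 2. Matches to 6 bases of the miR-125 seed numbered 19 and to 8 bases with an A 6, against 11, and matches to 8 bases of the miR-99/100 seed numbered 1, against 4. Samples could not be paired between groups because there is 1 group. Ratios within a library were given per replicate without a test. Depth limits the 3p arms of miR-99a and miR-100, whose 17 reads or fewer leave wide intervals.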

Other observations

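The 3p arms with few reads were less uniform in their consensus sequence than the 5p arms. The tables gave miR-100-3p the RefSeq start in replicate 1 (6 reads) and a start 1 base later in replicate 2 (2 reads). For miR-99a-3p the consensus ended 2 bases beyond RefSeq in replicate 1 and 1 base beyond it in replicate 2, with 13 and 17 reads. The consensus of miR-125a-3p, miR-125b-1-3p and miR-125b-2-3p began at the RefSeq base and ended 1 base before the RefSeq end in both replicates.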
